A study of Mus musculus with 4 samples.

Results

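The genes described here are 38 genes that build and maintain the sarcomere, the contractile unit of striated muscle, followed through the nuclei of the mouse right ventricle (RV). They were taken by symbol from the gene list of the count matrices, in which each of the 38 had 1 row among 27998. They were placed in 4 role groups, which were 7 genes of the thick filament, titin and the M-band, 8 of the thin filament, 14 of the Z-disc and its links to the rest of the cell, and 9 of sarcomere upkeep (folding, degradation and splicing). The data were single-nucleus RNA-seq (10x Genomics 3′ v3) of the RV on postnatal day 21 (P21), with 2 libraries from sham-operated mice and 2 from mice with right ventricular volume overload (RVVO). All mice were C57/BL6J wild type. RVVO was made on P7 by an aorta to vena cava fistula (ACF), and sham mice had the same surgery without the puncture. The study's methods also give injections of saline or cyclosporine A after surgery, and the sources used here do not say whether these mice had them. Nor do they say whether a library held 1 mouse or several, so each p-value measures only the spread between these libraries. The series was made to ask whether volume overload of the young RV brings cardiomyocytes (CMs) back into the cell cycle.

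In a sarcomere, thick filaments of myosin, held at their middle by the M-band, slide along thin filaments of actin, troponin and tropomyosin that are anchored in the Z-disc. Titin spans from the Z-disc to the M-band and sets passive stiffness. Sarcomere proteins turn over throughout life: chaperones fold and protect myosin, actinin and filamin, and the muscle ubiquitin ligases mark worn or surplus proteins for the proteasome. The Z-disc is also where the sarcomere is tied to desmin filaments and the membrane, and it is commonly described as a site where stretch is sensed.

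After filtering, 43180 nuclei were kept, 11424 and 12813 in the sham libraries and 7676 and 11267 in the RVVO libraries, and the deposited libraries held 51010039 to 64739206 unique molecular identifiers (UMIs, each counted as 1 RNA molecule). CMs were the 11629 nuclei in which *Ryr2*, the calcium release channel of muscle, took 1% or more of the UMIs: 2345, 2817, 2736 and 3731 nuclei in sham 1, sham 2, RVVO 1 and RVVO 2. Their median depth was 5109, 4939, 8531 and 4906 UMIs, so RVVO 1 was the deepest. All 10 CM markers were found in them, and their summed level lay between 85511 and 93898 CPM, the usual count scaled to depth. The list holds *Ryr2*, which chose the nuclei, and the members *Ttn* and *Rbm20*, so the sum is not independent of the rule. Among its other genes, *Myh6* (α-myosin heavy chain) stood at 9809 to 11578 CPM and *Slc8a1* (the sodium-calcium exchanger) at 4918 to 5973 CPM. Of the CMs, 91.9% sat in clusters that also carried the CM name and 368 sat in clusters of other lineages (192 of them in RVVO 1). Another 578 sat in unnamed clusters, 262 and 240 in the sham libraries and 51 and 25 in the RVVO libraries. Among all kept nuclei, CMs or not, 2963 lay near the cut on either side, with *Ryr2* at 0.75 to 1.25% of UMIs. CMs made up 20.5 and 22.0% of the kept nuclei in the sham libraries and 35.6 and 33.1% in the RVVO libraries. Their median mitochondrial share of UMIs was 0.400 and 0.403% in the sham libraries and 0.263 and 0.249% in the RVVO libraries. Between 28 and 70 cell barcodes were shared by each pair of libraries, and none of them had the same counts in both. *Xist*, the RNA of the inactive X chromosome, stood at 1482 and 1395 CPM in sham CMs and at 1.05 and 0.721 CPM in RVVO CMs, while the Y-linked *Uty* stood at 0.276 and 0.0602 CPM against 359.8 and 379 CPM. The sham libraries therefore carried female and the RVVO libraries male transcripts, so every difference between the groups is also one between the sexes, and the parts of sex and surgery in it cannot be told apart.

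The 38 genes together took 5.75 and 5.82% of the UMIs of sham CMs and 5.26 and 5.52% of those of RVVO CMs. The sham mean was 5.79% ± 0.0482 (SD, n = 2) and the RVVO mean was 5.39% ± 0.182 (SD, n = 2), a difference of -0.40 percentage points in which the groups did not overlap (p = 0.3333 by a two-sided exact permutation test, which with 2 against 2 libraries cannot go lower). In single CMs the median share was 5.80 and 5.59% in the sham libraries and 5.51 and 5.41% in the RVVO libraries, with an SD between the nuclei of a library of 0.856 points at least. Titin (*Ttn*) alone took a median of 1.94, 1.99, 1.99 and 1.82% of a CM's UMIs in sham 1, sham 2, RVVO 1 and RVVO 2. The other 37 genes together made up -0.28 points of the difference. By role, the difference was -0.16 points for the Z-disc, -0.12 for the thick filament, titin and M-band, -0.0981 for upkeep and -0.0181 for the thin filament, and of these only the thin filament overlapped between the groups. The Z-disc and upkeep differences stayed negative without overlap under each other choice of nuclei tried. That of the thick filament group did not: it was 0.0024 points with *Ryr2* at 2% or more, -0.026 in the nuclei of CM clusters and -0.024 without CMs in clusters of another lineage, each time with overlap, and under these choices that of the thin filament was 0.017, 0.016 and 0.015 points.

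No gene of the 38 passed the test between RVVO and sham CMs. The log2 fold changes furthest from 0 were negative and belonged to *Unc45b*, *Actn2*, *Fbxo32*, *Trim63* and *Mypn*, genes of the Z-disc and of sarcomere upkeep. All 38 genes were tested, in a fit of 14796 genes of which 0.0473% were called at an adjusted p under 0.05 (edgeR, quasi-likelihood, with the counts of all CMs of a library added up and Benjamini-Hochberg adjustment). Of the 38 genes, 0 were called, 6 were lower and 1 was higher at an unadjusted p under 0.05, against 5.39% of all genes at that p in either direction. For 18 of the 38 genes the RVVO libraries were both lower than either sham library, and for 2 they were both higher, against 16.8% and 16.7% of all genes. The fitted log2 fold change was negative for 32 genes and positive for 6, with a median of -0.19, against 0.0077 over all genes tested.

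The number of genes lying lower in both RVVO libraries moved with the choice of nuclei. It was 22 of 38 with a *Ryr2* limit of 0.5%, 12 with a limit of 2%, 13 when the nuclei of the named CM clusters stood in for the *Ryr2* rule, and 12 when CMs sitting in clusters of other lineages were left out. All genes lay lower in 17.7, 17.7, 16.9 and 16.8% of cases under these choices. The medians of the 38 genes' log2 fold changes were then -0.27, -0.10, -0.10 and -0.09. Marker lists of other lineages were read in the same CMs. The groups did not overlap for 3 of them, as was so for 33.5% of all single genes tested in CMs. In these 3, the 7 smooth muscle markers summed to 1946 and 1671 CPM in sham CMs and 1451 and 1289 CPM in RVVO CMs, the 7 epicardial markers to 17.4 and 17.3 CPM against 27.7 and 31.7 CPM, and the 7 T and NK cell markers to 1.79 and 2.83 CPM against 8.23 and 6.54 CPM. The groups overlapped for the endothelial, fibroblast, macrophage, pericyte, glial, B cell, erythroid, adipocyte and proliferation lists, of which the 10 endothelial markers summed to 1749 and 1674 CPM against 2132 and 1732 CPM, the 10 macrophage markers to 289 and 221 CPM against 502 and 282 CPM, and the 6 erythroid markers to 267 and 355 CPM against 849 and 331 CPM. The CM list itself stood at 89454 and 93898 CPM in sham CMs and 87729 and 85511 CPM in RVVO CMs. The smooth muscle sum was mostly *Myocd*, at 1769 and 1555 CPM in sham CMs and 1310 and 1165 CPM in RVVO CMs. *Myocd* was also a top gene of CM clusters 9 and 17, so this sum does not measure RNA of another lineage. *Acta2*, the next highest of that list, overlapped between the groups, at 160 and 103 CPM against 119 and 112 CPM. The endothelial sum was mostly *Ptprm*, at 1344 and 1497 CPM against 1403 and 1475 CPM. *Flt1*, of the same list, stood at 89.0 and 37.8 CPM against 170 and 49.6 CPM. *Cdh5* stood at 26.6 and 13.3 CPM against 24.3 and 17.1 CPM. *Lama2* led the fibroblast list, at 1297 and 1034 CPM against 1303 and 941 CPM. *Rbpj* led the macrophage list, at 194 and 177 CPM against 202 and 142 CPM. Sums led by 1 gene do not show how even RNA of other lineages was between libraries. No marker of these lists was at 0, and the part of these RNAs in the differences below was not tested.

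**Figure D1:**
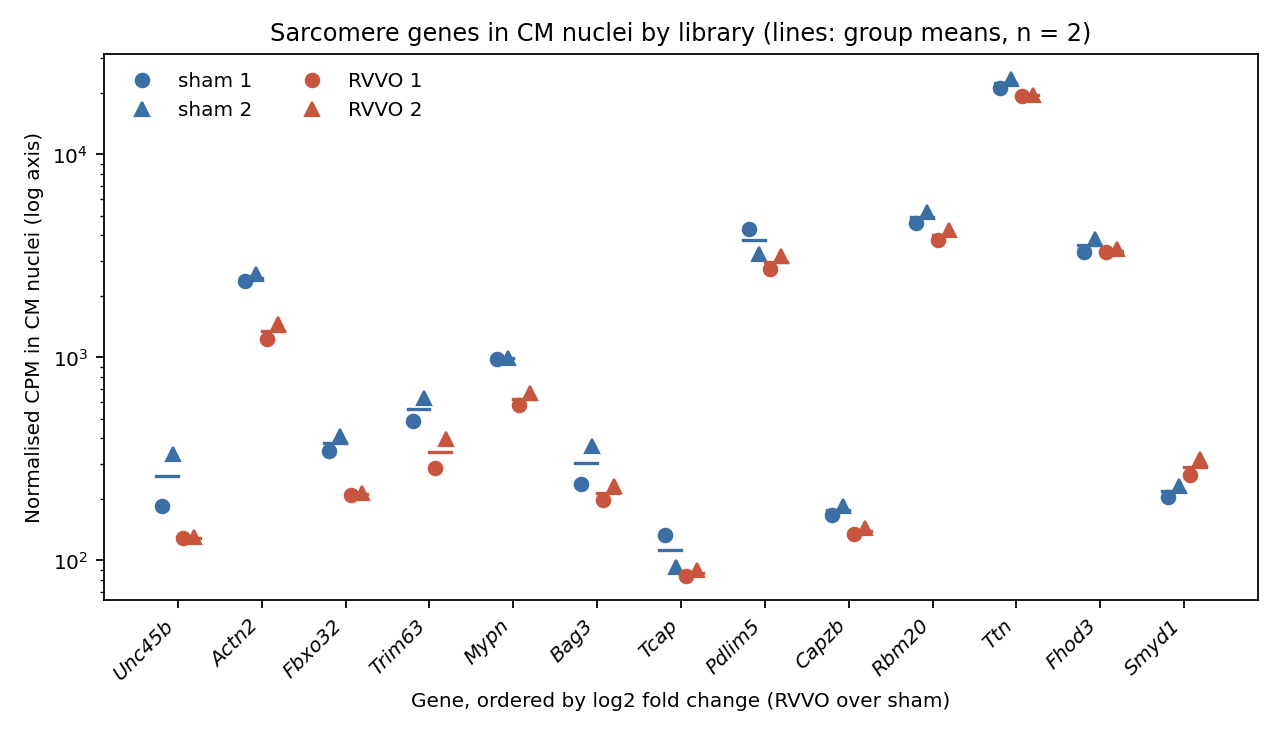
Normalised CPM (log axis) of 13 sarcomere genes in CM nuclei, ordered by log2 fold change, with 1 point per library and a line at the mean of each group (n = 2). Actn2, Fbxo32, Trim63, Mypn and Unc45b lie lower in both RVVO libraries, Smyd1 lies higher in both, and the groups overlap for Fhod3.

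At the Z-disc, *Actn2* (α-actinin-2, which crosslinks the thin filaments of neighbouring sarcomeres; chr13:12269426-12340760, minus strand of GRCm38) stood at 2371 and 2578 in the sham libraries and 1236 and 1460.3 in the RVVO libraries, in CPM scaled by edgeR's TMM factors (normalised CPM). Its lowest sham library was well above its highest RVVO library, and each group's libraries lay close together (log2 fold change -0.88, SE 0.148, adjusted p = 0.904). *Mypn* (chr10:63115795-63203952, minus strand) codes for myopalladin, which ties α-actinin to titin and nebulin-type proteins. It stood at 979 and 998 in the sham libraries and 586 and 667 in the RVVO libraries normalised CPM, again without overlap (log2 fold change -0.66, SE 0.129, adjusted p = 0.904). Both kept an unadjusted p under 0.05 under each of the 17 alternative settings tried, with log2 fold changes between -1.02 and -0.76 for *Actn2* and between -0.77 and -0.51 for *Mypn*. With DESeq2 in place of edgeR, which called 0.196% of 21422 genes, *Actn2* passed the test as lower in RVVO (adjusted p = 0.0136), and *Mypn* did not.

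The other 12 Z-disc genes gave values nearer to each other in the sham and RVVO libraries. *Tcap* codes for telethonin, which caps the Z-disc end of titin. It stood at 133 and 92.9 in the sham libraries and 84.2 and 89.5 in the RVVO libraries normalised CPM, with sham 2 close to the RVVO libraries (log2 fold change -0.38 ± 0.203, where ± gives the SE of the fit, here and for the genes that follow). *Pdlim5*, a PDZ and LIM scaffold on α-actinin, had the most UMIs of this group and stood at 4294 and 3246 in the sham libraries and 2716 and 3163 in the RVVO libraries (-0.36 ± 0.190). *Pdlim3*, a related scaffold, stood at 177 and 158 in the sham libraries and 125 and 146 in the RVVO libraries (-0.30 ± 0.146). In these 3 genes the RVVO libraries were both lower, as in 16.8% of all genes, but the gap between the groups was smaller than the distance between the sham libraries. Leaving out sham 1 moved the log2 fold change of *Tcap* to -0.10 and that of *Pdlim5* to -0.15, and leaving out sham 2 moved them to -0.62 and -0.55. The groups overlapped for the remaining 9, which are *Ldb3*, *Myoz2*, *Nebl*, *Palld*, *Synpo2*, *Flnc*, *Des*, *Pdlim7* and *Sorbs2*, with log2 fold changes from -0.33 (*Flnc*, the actin crosslinker filamin C) to 0.11 (*Synpo2*, which binds actinin and takes part in the removal of damaged filamin). *Des* (desmin, the intermediate filament around the Z-disc) was among them at 247 and 225 in the sham libraries and 173 and 229.5 in the RVVO libraries normalised CPM.

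Among the upkeep genes, the muscle ubiquitin ligases did not go one way. *Fbxo32* (chr15:58175879-58214932, minus strand) codes for atrogin-1, the substrate-binding part of a ubiquitin ligase of muscle atrophy. It stood at 348 and 411 in the sham libraries and 210.5 and 214 in the RVVO libraries normalised CPM (log2 fold change -0.84, SE 0.136, adjusted p = 0.904). *Trim63* (chr4:134315120-134329629, plus strand) codes for MuRF1, a ligase of the sarcomere that targets myosin and troponin. It stood at 484 and 629.6 in the sham libraries and 287 and 395 in the RVVO libraries (log2 fold change -0.71, SE 0.218, adjusted p = 0.904). Its relatives *Trim55* (MuRF2) and *Trim54* (MuRF3) stood at 577 and 619 in the sham libraries and 526 and 553 in the RVVO libraries and at 106 and 116 in the sham libraries and 126 and 134 in the RVVO libraries normalised CPM. *Fbxo32* was thus lower in both RVVO libraries by a gap wider than the spread within either group, *Trim63* by a gap narrower than that spread. *Trim55* was lower by a small step (-0.15 ± 0.120) and *Trim54* higher by a small step (0.23 ± 0.129). DESeq2 called *Fbxo32* lower (adjusted p = 0.0218). Over the 17 alternatives *Fbxo32* kept an unadjusted p under 0.05 in 17 and *Trim63* in 15, with log2 fold changes from -0.96 to -0.69 and from -0.97 to -0.49. The gene model *Gm15943* lies over *Fbxo32* on the other strand, and no source used here says whether the counting kept the strands apart.

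The myosin chaperone gene and the gene of its partner lay on opposite sides. *Unc45b*, the myosin chaperone of striated muscle (chr11:82910550-82943403, plus strand), stood at 184 and 335 in the sham libraries and 128 and 130.0 in the RVVO libraries normalised CPM (log2 fold change -1.01, SE 0.291, adjusted p = 0.904). The RVVO libraries were almost equal and the sham libraries far apart, so the size depended on 1 library: the log2 fold change was -0.52 without sham 2 and -1.38 without sham 1. *Unc45b* overlaps *Slfn5os* and *Unc45bos* on the other strand. *Smyd1* (chr6:71213940-71322233, minus strand) codes for a methyltransferase that works with this chaperone in assembling the thick filament. It was higher in both RVVO libraries, at 206 and 234 in the sham libraries and 265 and 316 in the RVVO libraries (log2 fold change 0.40, SE 0.1496, adjusted p = 0.916). Its log2 fold change was positive in all 17 alternatives (0.26 to 0.58) and its unadjusted p was under 0.05 in 12 of them. *Smyd1* overlaps *Gm1070* and *Krcc1* on the other strand.

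The 3 further upkeep genes complete the group. *Bag3*, a co-chaperone that sends damaged filamin to autophagy, stood at 238 and 366 in the sham libraries and 198 and 231 in the RVVO libraries normalised CPM (-0.49 ± 0.233), and its log2 fold change was -0.15 without sham 2 and -0.77 without sham 1. *Cryab* (αB-crystallin, a small heat shock protein on desmin and titin) stood at 162 and 183 in the sham libraries and 90.005 and 169.8 in the RVVO libraries, where RVVO 2 lay between the sham libraries. *Rbm20*, which controls the splicing of titin, had the most UMIs of the upkeep genes. It stood at 4611 and 5217 in the sham libraries and 3789.7 and 4253 in the RVVO libraries (-0.29 ± 0.149), without overlap and with a gap smaller than the distance between the sham libraries. Within the 9 upkeep genes the median log2 fold change was -0.41, with 6 genes lower in both RVVO libraries, 2 higher and 1 overlapping, where 16.8 and 16.7% of all genes lay lower and higher. The median compared with -0.25 at the Z-disc, -0.17 in the thin filament and -0.13 in the thick filament, titin and M-band.

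In the thick filament, titin and M-band group, *Ttn* (titin, chr2:76703980-76982547, minus strand) stood at 21373 and 23549.9 in the sham libraries and 19461 and 19718 in the RVVO libraries normalised CPM (-0.20 ± 0.158). The RVVO libraries were both lower, by a gap narrower than the distance between the sham libraries. *Myom1* (myomesin, which crosslinks myosin at the M-band) stood at 388 and 381 in the sham libraries and 314 and 356 in the RVVO libraries, while its relative *Myom2* stood at 347 and 541 in the sham libraries and 347 and 574 in the RVVO libraries, where 1 library of each group was high and the other low. The ventricular light chains *Myl2* (regulatory) and *Myl3* (essential) also varied more within the groups than between them, at 1716 and 1315 in the sham libraries and 1117 and 1604 in the RVVO libraries for *Myl2* and 1260.2 and 891 in the sham libraries and 689 and 1276 in the RVVO libraries for *Myl3*. *Mybpc3* (cardiac myosin-binding protein C) stood at 356 and 420.4 in the sham libraries and 409 and 472 in the RVVO libraries, and *Obsl1*, an M-band linker, had the fewest UMIs of the group, at 37.6 and 36.8 in the sham libraries and 35.9 and 33.4 in the RVVO libraries. None of the 7 genes had an unadjusted p under 0.05, and 3 of them (*Ttn*, *Myom1* and *Obsl1*) lay lower in both RVVO libraries, as did 16.8% of all genes.

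All 8 thin filament genes had negative log2 fold changes, none larger in size than 0.33. *Capzb* (the actin capping protein of the Z-disc end) stood at 167 and 185 in the sham libraries and 136 and 145 in the RVVO libraries normalised CPM (log2 fold change -0.33, SE 0.129, adjusted p = 0.916), and its unadjusted p was under 0.05 in 5 of 17 alternatives. *Cap2*, an actin monomer binder that takes part in thin filament turnover, stood at 533 and 564 in the sham libraries and 413 and 481 in the RVVO libraries (-0.29 ± 0.135). *Tnnt2* (cardiac troponin T) stood at 3349 and 3105 in the sham libraries and 2463 and 3038 in the RVVO libraries and *Tmod1*, which caps the other filament end, at 253 and 275 in the sham libraries and 243 and 219.9 in the RVVO libraries. These 4 genes were lower in both RVVO libraries, as were 16.8% of all genes, and for *Tnnt2* the gap between RVVO 2 and sham 2 was small beside the spread of the RVVO libraries. The groups overlapped for *Tnnc1* (troponin C), *Tpm1* (tropomyosin), *Lmod2* (leiomodin, which lengthens thin filaments) and *Fhod3*. *Fhod3*, the formin that assembles thin filaments, had the most UMIs of this group and stood at 3304 and 3836 in the sham libraries and 3302 and 3425 in the RVVO libraries. Its log2 fold change of -0.09 turned positive, between 0.01 and 0.05, under 4 alternatives.

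**Figure D2:**
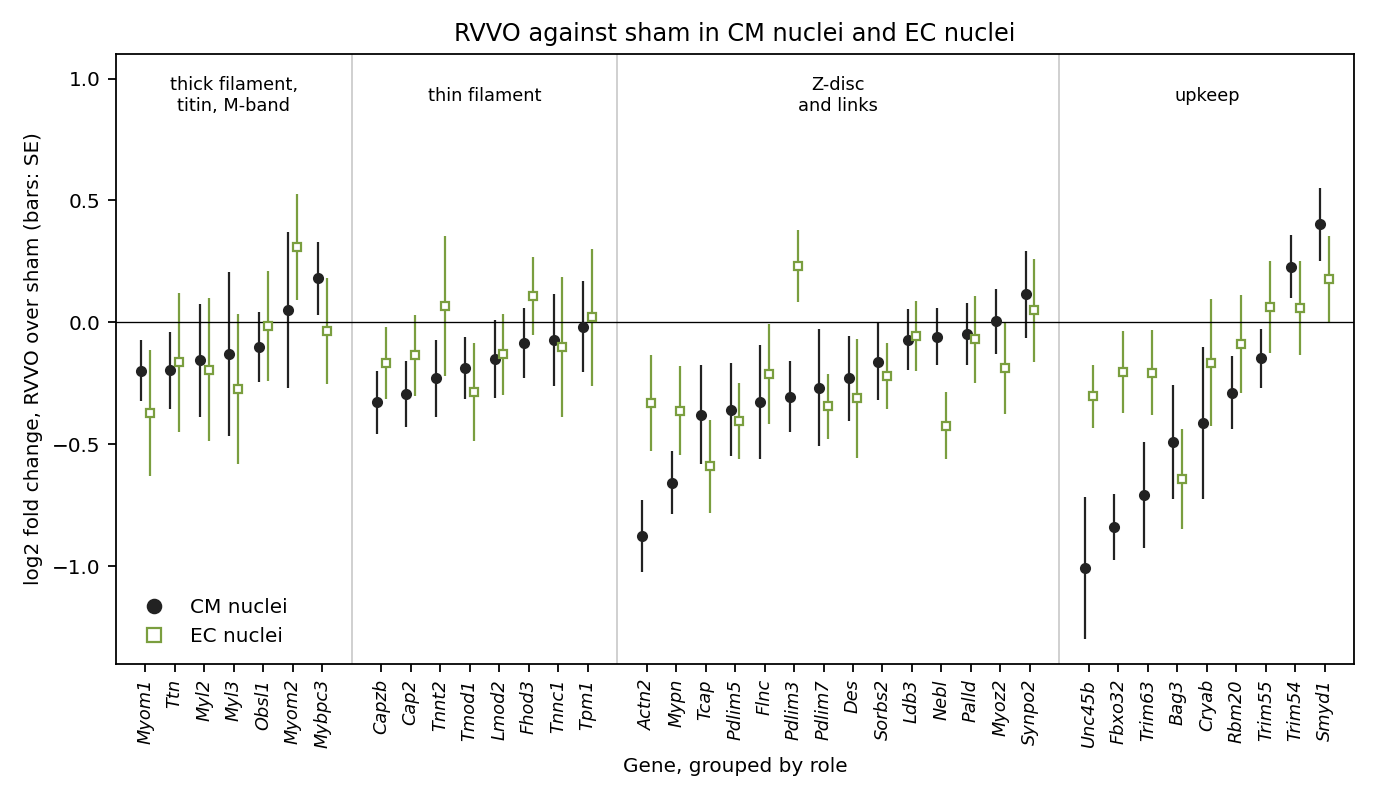
Log2 fold change of RVVO over sham (bars: SE of the edgeR fit) of the 38 genes in CM nuclei (filled) and endothelial nuclei (open), by role group. In CMs 5 genes lie at -0.66 or lower (Unc45b, Actn2, Fbxo32, Trim63 and Mypn) while the others lie between -0.49 and 0.40, and none passed the test in either lineage.

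The 250 bases before the transcription start, as RefSeq places it in GRCm38.p6, are given for 5 of the genes because muscle and atrophy programmes are read through short motifs there and because *Actn2*, *Mypn* and *Trim63* were lower in both RVVO libraries. RefSeq promoters were at hand for 31 of the 38 genes and for 27025 symbols in all. *Fbxo32* was not among the 31, so its promoter was not searched for any motif. Motifs were searched on both strands, and for each gene the motifs named beside it stand in capitals while other matches, such as E-boxes in *Trim63*, *Mypn*, *Myl3* and *Ttn* and TATAAA in *Trim63* and *Mypn*, stay in lower case, each line running 5′ to 3′ along the gene's own strand.
*Trim63* (chr4:134314870-134315119, plus strand; capitals: the forkhead motif GTAAACA, read on the other strand, and the M-CAT motif CATTCC, read on the other strand): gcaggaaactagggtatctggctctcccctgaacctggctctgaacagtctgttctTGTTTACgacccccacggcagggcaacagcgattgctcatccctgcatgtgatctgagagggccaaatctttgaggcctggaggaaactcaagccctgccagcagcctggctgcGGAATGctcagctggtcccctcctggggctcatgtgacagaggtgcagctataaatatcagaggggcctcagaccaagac
*Mypn* (chr10:63203953-63204202, minus strand; capitals: M-CAT, read on the other strand): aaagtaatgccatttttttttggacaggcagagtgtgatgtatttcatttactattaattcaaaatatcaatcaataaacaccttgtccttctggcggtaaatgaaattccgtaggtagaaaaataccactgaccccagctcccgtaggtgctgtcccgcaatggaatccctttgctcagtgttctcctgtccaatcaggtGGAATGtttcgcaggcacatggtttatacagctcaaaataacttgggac
*Actn2* (chr13:12340733-12340982, minus strand; capitals: E-boxes, CANNTG): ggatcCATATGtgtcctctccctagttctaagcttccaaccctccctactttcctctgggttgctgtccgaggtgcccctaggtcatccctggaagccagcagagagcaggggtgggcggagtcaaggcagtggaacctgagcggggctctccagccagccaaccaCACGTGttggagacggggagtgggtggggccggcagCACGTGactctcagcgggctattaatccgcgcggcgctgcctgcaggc
*Myl3* (chr9:110763428-110763677, plus strand; capitals: M-CAT on each strand, then the serum response element or CArG box): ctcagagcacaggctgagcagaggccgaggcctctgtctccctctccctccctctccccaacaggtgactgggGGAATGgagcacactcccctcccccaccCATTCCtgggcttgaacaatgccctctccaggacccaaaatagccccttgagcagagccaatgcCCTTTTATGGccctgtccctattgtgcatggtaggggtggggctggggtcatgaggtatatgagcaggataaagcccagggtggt
*Ttn* (chr2:76982548-76982797, minus strand; capitals: the MEF2 motif): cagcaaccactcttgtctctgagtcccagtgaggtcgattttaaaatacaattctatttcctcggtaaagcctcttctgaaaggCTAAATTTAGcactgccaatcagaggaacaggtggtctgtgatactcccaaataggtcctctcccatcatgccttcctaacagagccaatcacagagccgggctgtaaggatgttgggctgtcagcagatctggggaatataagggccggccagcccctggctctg

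In these windows *Trim63* held a forkhead motif at bases -194 to -188 and an M-CAT at -80 to -75 from the start, *Mypn* an M-CAT at -49 to -44, and *Ttn* a MEF2 motif at -166 to -157. *Myl3*, whose level overlapped between the groups, held M-CAT motifs and a CArG box at -85 to -76, and *Actn2* held 3 E-boxes and no match to the other motifs searched. M-CAT, the motif of TEAD factors, was in 12 of 31 genes (38.7%) against 14.4% of all symbols. The MEF2 motif was in 4 (12.9% against 3.42%) and the CArG box of serum response factor in 4 (12.9% against 1.62%). The forkhead motif, which FoxO factors can bind, was in *Trim63* alone of the 31 (3.23% against 3.54%), the E-box in 25 (80.6% against 69.3%) and TATAAA in 7 (22.6% against 14.3%). M-CAT was thus found in genes that were lower in both RVVO libraries (*Mypn*, *Trim63*, *Tnnt2*, *Tmod1*, *Pdlim3*), in *Trim54*, which was higher in both, and in genes whose groups overlapped (*Flnc*, *Myl3*, *Nebl*, *Palld*, *Tnnc1*, *Tpm1*). In *Mypn* the M-CAT shares a base with an E-box, and MEF2 and TATAAA matches can share letters. A match says only that the letters are there.

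CM nuclei fell into 11 clusters built without the 38 genes, and the libraries filled them unequally. Cluster 4 (leading genes *Mhrt*, *D830032E09Rik* and *Myh7*) held 64.7% of the CMs of RVVO 1 but 2.39, 8.56 and 4.56% of those of sham 1, sham 2 and RVVO 2, and cluster 9 (*Ppargc1a*, *F830016B08Rik*, *Fhl2*) held 41.4% of the CMs of sham 1 but 0.585% of those of RVVO 1. Levels were therefore also compared inside each of the 5 clusters with at least 40 CMs of every library (4, 8, 10, 12 and 20), a comparison chosen after the data were seen. The 5 clusters held 19.1, 53.6, 84.0 and 69.5% of the CMs of sham 1, sham 2, RVVO 1 and RVVO 2. Levels in this comparison are in CPM without TMM scaling.

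*Actn2*, *Mypn*, *Trim63* and *Fbxo32* were lower in both RVVO libraries than in both sham libraries in 5 of 5 clusters, as were 0.635% of all genes. These genes were already lower in both RVVO libraries over all CMs, which is not so for all genes in that share. The clusters hold nuclei of the same 4 libraries, so 5 clusters are not 5 separate observations. In cluster 12, *Actn2* stood at 2756, 2666, 1798 and 1642 CPM in sham 1, sham 2, RVVO 1 and RVVO 2, and in cluster 20 (*Fgf14*, *Sema3a*, *Mpped2*), where it was low throughout, at 1859, 1911, 1132 and 1179.9 CPM. *Trim63* stood at 573, 656, 397 and 455 CPM in cluster 12 and *Mypn* at 1139, 1069, 764 and 766 CPM. The narrowest gap for *Fbxo32* was in cluster 10, at 251, 401, 225 and 224 CPM, where sham 1 was close to the RVVO libraries. Cluster 10 held only 57 CMs of sham 1 and 41 of RVVO 1. *Smyd1* and *Mybpc3* were higher in both RVVO libraries in 5 of 5 clusters, as were 0.52% of all genes, with *Smyd1* at 175, 196, 274 and 315 CPM in cluster 12 and *Mybpc3* at 382, 410.4, 726 and 523 CPM in cluster 8. *Trim54* was higher in 4 clusters, *Unc45b* and *Cap2* were lower in 3, and *Nebl* was higher in 3. *Ttn*, *Myl2*, *Myl3*, *Tnnt2*, *Tpm1*, *Lmod2*, *Tmod1*, *Myom2* and *Pdlim5* overlapped in each of the 5 clusters.

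**Figure D3:**
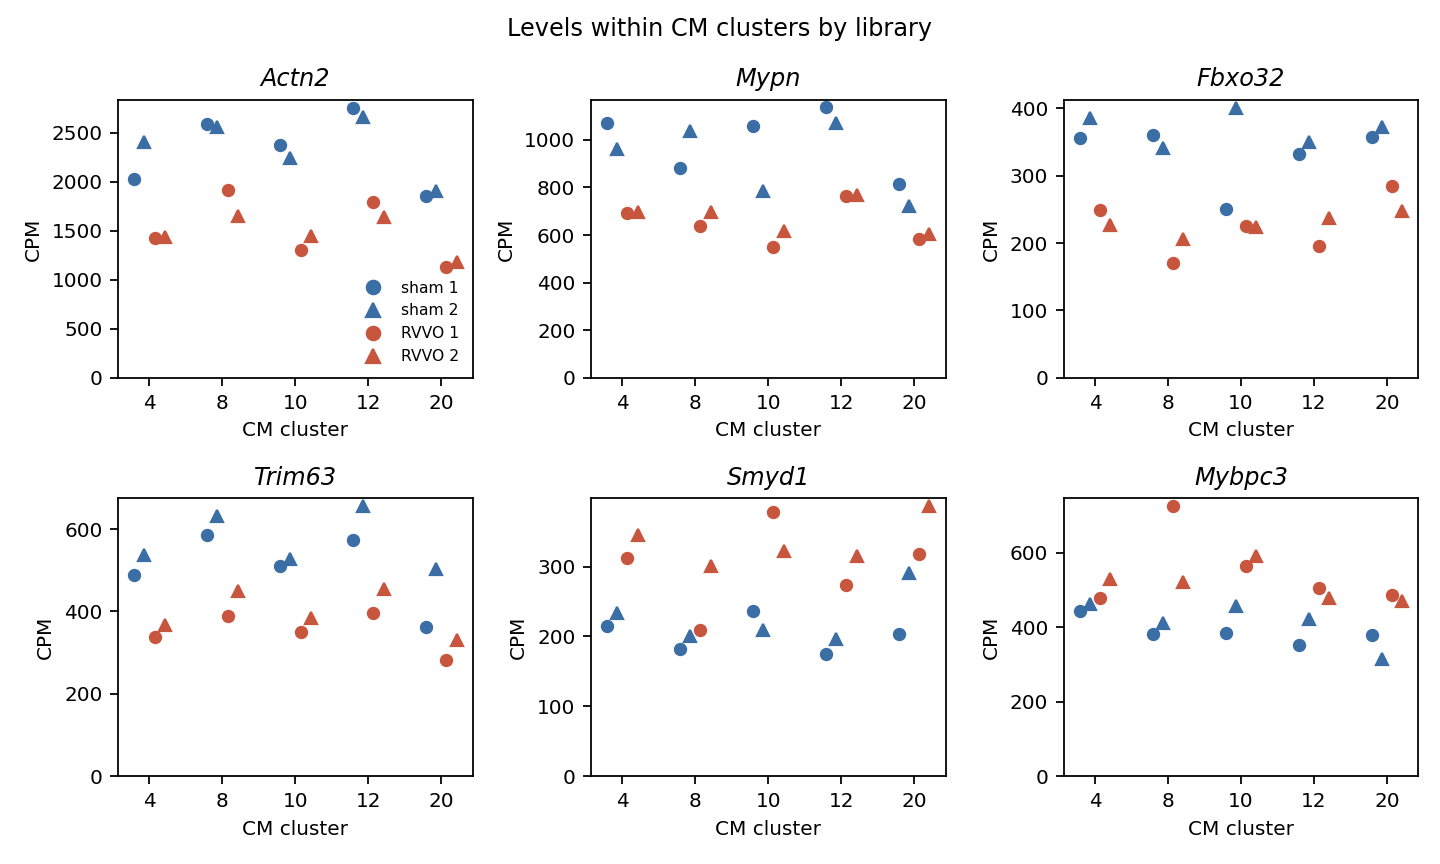
CPM of 6 sarcomere genes in 5 clusters of CM nuclei, with 1 point per library (blue sham, red RVVO; circles replicate 1, triangles replicate 2) and axes from 0. In each cluster both RVVO points lie below both sham points for Actn2, Mypn, Fbxo32 and Trim63 and above them for Smyd1 and Mybpc3.

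Among the clusters themselves, 1 small cluster, cluster 31, differed from cluster 12 in *Cap2*, *Tmod1* and *Mybpc3*. Cluster 31, whose leading genes were *Fgf12*, *Ryr3* and *Kcnj3*, had 267 CMs, of which 0, 114, 20 and 133 came from sham 1, sham 2, RVVO 1 and RVVO 2. In sham 2, RVVO 1 and RVVO 2 it held *Cap2* at 667, 696 and 782 CPM and *Tmod1* at 386, 448 and 394 CPM, against 503, 437 and 466 CPM and 238, 261 and 194 CPM in cluster 12. *Mybpc3* was the other way round, at 181, 378 and 251 CPM in cluster 31 and 421, 505 and 479 CPM in cluster 12. *Pdlim3* stood at 740, 156 and 384 CPM in cluster 31 and 131, 142 and 153 CPM in cluster 12, so it was high in sham 2 and RVVO 2 and near the level of cluster 12 in RVVO 1. Cluster 20 had the highest *Synpo2* of the 11 clusters and cluster 10 the highest *Myl2* and *Myl3*, in each of the 4 libraries. Cluster 31 could not be ranked in sham 1, where it had no CMs. Some clusters had few CMs in a library, such as 7 of sham 2 in cluster 40. *Synpo2* stood at 1274, 1142, 1540 and 1190 CPM in cluster 20, and *Myl2* at 3272, 2167, 2321 and 2605 CPM in cluster 10, in sham 1, sham 2, RVVO 1 and RVVO 2. Pooled over the libraries, *Ttn* kept within 17069 to 23141 CPM. These are levels of clusters that expression defined, so no test was made between them.

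The same 38 genes were then followed through the other lineages, which were clusters named from markers: 8708 endothelial cell (EC) nuclei, 6615 fibroblast, 2979 pericyte, 2749 macrophage, 1131 epicardial, 552 smooth muscle and 267 glial nuclei, none of them CMs by the *Ryr2* rule. Lineages were chosen by expression, so the values between them are a description. The EC class leaves out cluster 2, which stayed unnamed under the naming thresholds although its best marker score was endothelial, with 10 EC markers found. Cluster 2 held 2501 nuclei, 1343, 867, 69 and 222 of them in sham 1, sham 2, RVVO 1 and RVVO 2. The EC levels and tests given here do not cover these nuclei, which were more numerous in the sham libraries. In sham 1, sham 2, RVVO 1 and RVVO 2 the genes took 2.56, 1.77, 2.07 and 2.001% of EC UMIs, 2.22, 1.84, 2.02 and 2.18% of smooth muscle UMIs, 1.87, 1.27, 1.90 and 1.66% of macrophage UMIs and 1.69, 1.17, 1.41 and 1.45% of fibroblast UMIs. RNA of the 10 CM marker genes, *Ttn* and *Rbm20* among them, was found in these nuclei, with none of the 10 at 0. Their levels summed to 23013, 16465, 20035 and 16029 CPM in ECs and to 24017, 14127, 29447 and 21619 CPM in macrophages. How much of the sarcomere RNA in these lineages came from CMs was not tested.

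The genes ranged widely in how far CMs stood above ECs. *Rbm20* was 27.8-fold (range over the libraries 21.9 to 32.4) higher in CMs, at 4499, 4941, 4008 and 4337 CPM against 139, 187, 183 and 136 CPM in ECs. *Fhod3* followed at 19.5-fold, *Mypn* at 16.1-fold, *Cap2* at 15.9-fold, *Trim55* at 15.2-fold, *Synpo2* at 14.2-fold, *Palld* (palladin, an actin-bundling relative of myopalladin) at 13.3-fold and *Ldb3* (the Z-disc scaffold also called Cypher) at 11.3-fold. *Actn2* was 5.21-fold (range over the libraries 4.05 to 7.61) higher and *Ttn* only 3.04-fold (range over the libraries 2.48 to 3.68). The median over the 38 genes was 2.69-fold against ECs, 2.43-fold against smooth muscle, 3.41-fold against macrophages and 4.72-fold against fibroblasts, and 28, 26, 34 and 30 genes were higher in CMs in each of the 4 libraries.

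Of the 38 genes, 12 genes reached or passed their CM level in at least 3 of 4 libraries in ECs, fibroblasts, macrophages, pericytes or smooth muscle. *Myl2* stood at 1674, 1246, 1181 and 1636 CPM in CMs of sham 1, sham 2, RVVO 1 and RVVO 2 and at 3585, 2009, 2358 and 2800.1 CPM in ECs, and *Myl3* at 1229, 844, 729 and 1302 against 2907, 1614, 1635 and 2319 CPM. Both light chains were thus higher in EC than in CM nuclei in every library. The same held for *Tcap*, at 129.6, 88.0, 89.0 and 91.2 CPM in CMs and 234, 168, 131 and 149.6 CPM in ECs, and for *Cryab*, at 158, 174, 95.2 and 173 against 320.4, 187, 208 and 269 CPM. *Des* stood at 241, 213, 183 and 234 CPM in CMs and 403, 241, 263 and 283 CPM in ECs, and *Pdlim7*, a PDZ and LIM scaffold on actin, at 35.3, 26.9, 33.3 and 22.5 against 71.8, 81.5, 59.2 and 67.4 CPM. *Capzb* was higher in macrophages than in CMs in every library, at 163, 176, 143 and 148 CPM in CMs and 166, 271, 165 and 177 CPM in macrophages. The step was small in sham 1 and largest in sham 2.

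Smooth muscle nuclei, which have a contractile apparatus of their own but no sarcomeres, were at or above CMs for 11 genes, the most of any lineage. *Cap2* stood at 759.8, 925, 619.6 and 678 CPM there against 519.8, 534, 436 and 491 CPM in CMs, and *Synpo2* at 999, 1125, 777 and 939 against 698, 705, 962 and 684 CPM. *Sorbs2*, an adaptor between actin and adhesion proteins, stood at 1781, 2206, 1835 and 2486 against 1697, 1859, 1579 and 1853 CPM. In ECs the same 3 genes were 15.9-, 14.2- and 6.81-fold below CMs. *Pdlim3* stood at 290.4, 325, 281 and 349 CPM in smooth muscle, 188, 171, 197 and 193 CPM in fibroblasts and 173, 149.9, 132 and 149 CPM in CMs. *Tpm1* stood at 2699, 1994, 2355 and 2766 CPM in smooth muscle against 1897, 1342, 1695 and 1751 CPM in CMs. The smooth muscle class was small, with 189, 203, 59 and 101 nuclei. In epicardial nuclei, *Unc45b* stood at 191, 248, 244 and 179 CPM, above its CM level of 179.9, 317, 136 and 133 CPM in 3 of 4 libraries.

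**Figure D4:**
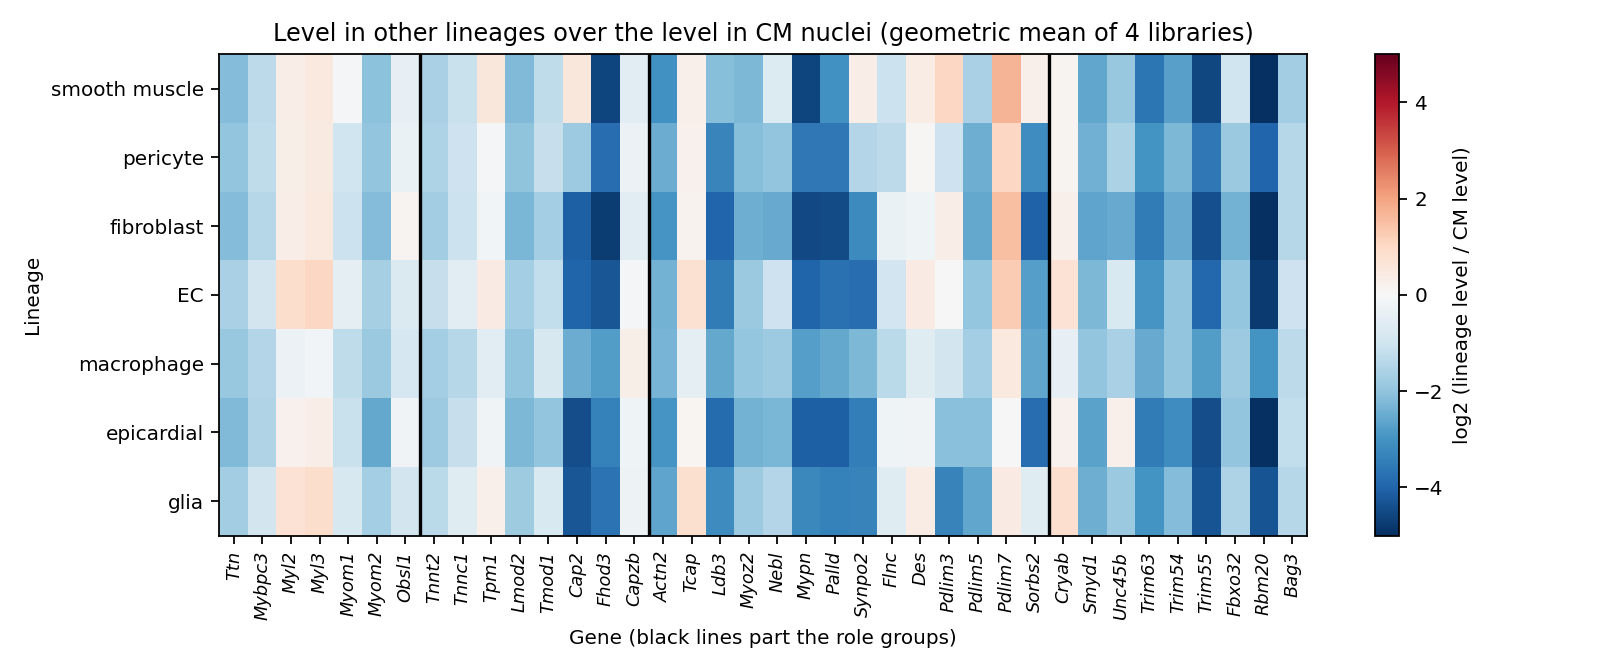
Log2 ratio of each gene's CPM in 7 lineages to its CPM in CM nuclei (geometric mean over 4 libraries), with blue below and red above the CM level and black lines between the role groups. Rbm20, Fhod3, Mypn and Trim55 are blue in every lineage shown, Myl2, Myl3, Tcap and Pdlim7 are red in ECs, and Cap2, Synpo2 and Sorbs2 are red only in the smooth muscle row.

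The genes at or above their CM level in ECs were mostly short. Over the 38 genes, the log2 ratio of CM to EC level went up with the log span of the gene in GENCODE vM21 (Pearson r = 0.608, Spearman rho = 0.604 across 38 genes of the same libraries, a description with no test). The median ratio was 1.09 for the 10 genes that span under 20 kb and 6.81 for the 11 genes of 100 kb or more. *Tcap* spans 1.14 kb and had a ratio of 0.588, *Myl2* spans 12.5 kb with 0.540, and *Rbm20* spans 189.8 kb with 27.8. *Trim63*, at 14.5 kb and 7.65-fold, and *Nebl*, at 388 kb and 2.04-fold, lay off this line on either side. Against smooth muscle the same values were r = 0.304 and rho = 0.259.

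**Figure D5:**
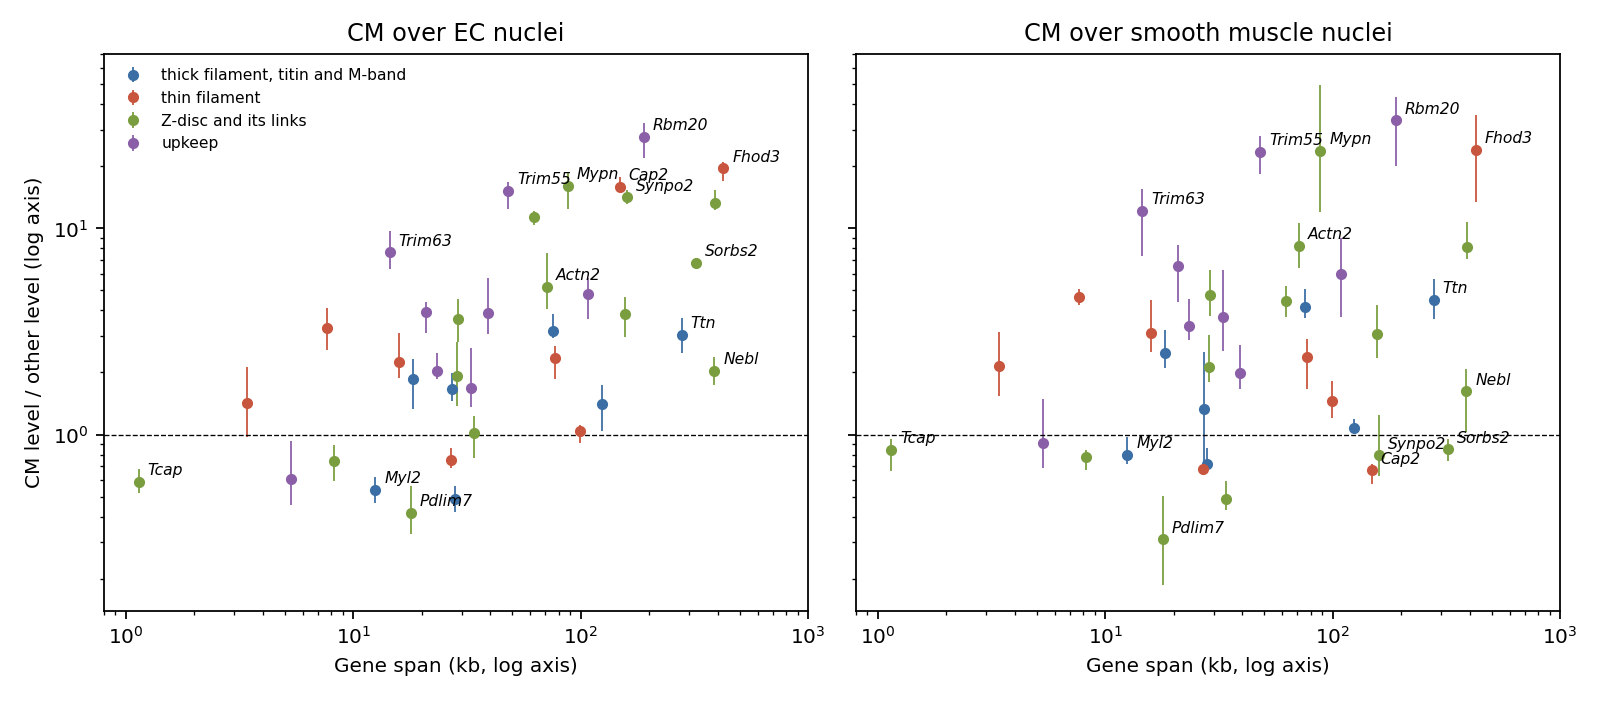
Ratio of CM to EC level (left) and of CM to smooth muscle level (right) against gene span (both axes log), 1 point per gene at the geometric mean of 4 libraries, with bars from the lowest to the highest library and a dashed line at equal levels. Short genes such as Tcap, Myl2 and Pdlim7 lie below the line against ECs and long ones such as Rbm20 and Fhod3 lie far above it, while Cap2, Synpo2 and Sorbs2 drop below the line against smooth muscle.

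The share of nuclei with a UMI was compared after thinning each nucleus to 1000 UMIs, which left out 60, 120, 1 and 0 CMs and 116, 346, 7 and 0 ECs of sham 1, sham 2, RVVO 1 and RVVO 2. ECs serve as the lineage without sarcomeres, and their median depth before thinning was 1674, 1610.5, 2906 and 2285 UMIs. *Actn2* was found in 87.0, 86.7, 71.2 and 74.9% of CMs and 37.6, 29.5, 29.8 and 28.1% of ECs, so both RVVO libraries had fewer positive CMs than both sham libraries. *Mypn* was found in 54.2, 54.0, 46.3 and 46.9% of CMs and 5.59, 5.33, 5.13 and 4.11% of ECs, and *Fbxo32* in 26.1, 29.5, 19.5 and 19.2% and 8.68, 6.43, 7.39 and 6.17%. The shares followed the levels for *Trim63* (34.0, 42.3, 24.9 and 31.0% of CMs and 6.37, 6.12, 5.07 and 7.26% of ECs) and for *Smyd1* (17.1, 18.9, 23.4 and 26.5% and 6.42, 4.08, 6.20 and 6.66%). *Ttn* was found in 98.4% or more of the nuclei of both lineages in every library and separated nothing at this depth, whereas *Rbm20* was found in 93.3, 95.4, 96.0 and 96.9% of CMs and 13.2, 17.3, 15.7 and 11.8% of ECs. *Unc45b* stood closer to the EC share, with 17.0, 23.5, 13.6 and 11.8% of CMs, 10.9, 12.1, 10.0 and 9.10% of ECs and 17.7, 20.2, 21.5 and 17.1% of epicardial nuclei. The CM share was above the EC share in every library for 30 of the 38 genes and below it in every library for 6 (*Myl2*, *Myl3*, *Tpm1*, *Tcap*, *Des* and *Pdlim7*).

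Outside CMs, none of the 38 genes was called between RVVO and sham in ECs, fibroblasts, macrophages or pericytes, where 0.163, 0.0521, 0.0363 and 0.0579% of all genes were called (edgeR). In ECs 6 genes were lower at an unadjusted p under 0.05, against 6.6% of all genes in either direction: *Bag3* (-0.64 ± 0.204), *Tcap* (-0.59 ± 0.191), *Nebl* (-0.42), *Pdlim5* (-0.41), *Pdlim7* (-0.35) and *Unc45b* (-0.30), as log2 fold changes, with a lowest adjusted p of 0.516. Of these, *Unc45b* was also lower at that p in CMs. In ECs *Actn2* stood at 472 and 322 in the sham libraries and 323 and 307 in the RVVO libraries normalised CPM (-0.33 ± 0.197), where sham 2 lay with the RVVO libraries. In ECs 9 genes lay lower and 1 higher in both RVVO libraries, against 17.7% and 17.1% of all genes, and the median was -0.17, which turned to 0.06 without sham 1 and went to -0.31 without sham 2. Sham 1 also had the highest CM marker sum of the EC libraries. That sum holds *Ttn* and *Rbm20* of the 38 genes, and its part in the median was not tested.

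Fibroblasts and pericytes had medians near 0 (-0.05 and 0.01), with a range from -0.16 to 0.10 and from -0.09 to 0.25 when 1 library was left out. In fibroblasts 6 genes lay lower and 4 higher, against 15.7 and 15% of all genes, and *Smyd1* was the only one of the 38 at an unadjusted p under 0.05 (0.39 ± 0.148), as were 3.66% of all genes. In pericytes 3 lay lower and 5 higher, against 14.7 and 13.9%, and *Trim54* (0.78 ± 0.276) and *Smyd1* (0.58 ± 0.215) were higher at that p, as were 2.91% of all genes in either direction. In macrophages 13 genes were higher and 7 lower in both RVVO libraries against 19.2 and 20.2% of all genes, with a median of 0.19. The sign of that median turned when each nucleus was thinned to 1000 UMIs, to -0.04 over the 37 genes then tested (17 positive and 20 negative). Without thinning it was 0.67 without sham 1 and 0.0018 without sham 2. In macrophages sham 2 had the lowest CM marker sum, whose part in the median was not tested either. There *Smyd1* (1.14 ± 0.276) and *Myom2* (0.52 ± 0.185) were higher and *Tcap* (-0.79 ± 0.280) lower at an unadjusted p under 0.05, against 5.16% of all genes. The log2 fold change of *Smyd1* was positive in all 5 lineages tested, 0.40 in CMs and 0.18 in ECs, and the lowest adjusted p of the 38 genes outside CMs and ECs was 0.8.

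The difference between the CM and EC effects was tested itself, as an interaction with the library as a block. None of the 38 genes passed it, and 0% of 14901 genes did (edgeR). At an unadjusted p under 0.05, as for 3.36% of all genes, the effect was more negative in CMs for *Fbxo32* (difference -0.64 ± 0.244), *Pdlim3* (-0.54 ± 0.208) and *Trim63* (-0.49 ± 0.193), each with an adjusted p of 1. For *Pdlim3* the parts had opposite signs, -0.30 in CMs and 0.23 in ECs. *Actn2* (difference -0.57 ± 0.274) and *Unc45b* (-0.64 ± 0.274) were not among them, and *Mypn* had a difference of -0.29 ± 0.264.

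A further 45 genes of the sarcomere, its Z-disc signalling proteins and its chaperones were examined in the same CM fit, of which 44 had a row and 42 passed the filter on low counts. None was called, 7 were lower and 1 was higher at an unadjusted p under 0.05, and 16 lay lower and 4 higher in both RVVO libraries, against 5.39% of all genes at that p and 16.8 and 16.7% lower and higher in both, with a median log2 fold change of -0.10. The 3 with the largest change among those that did not overlap were *Tnnt1* (slow skeletal troponin T), at 10.3 and 10.2 in the sham libraries and 5.48 and 6.63 in the RVVO libraries normalised CPM (log2 fold change -0.76, SE 0.224, adjusted p = 0.904), *Hspa8* and *Alpk3*. *Hspa8*, the constitutive Hsp70 chaperone that works with BAG3, stood at 220.4 and 227 in the sham libraries and 115 and 181 in the RVVO libraries (log2 fold change -0.60, SE 0.234, adjusted p = 0.916). *Alpk3*, an M-band pseudokinase, stood at 436 and 548 in the sham libraries and 317 and 376 in the RVVO libraries (log2 fold change -0.51, SE 0.171, adjusted p = 0.904). *Tnnt1* was scarce and *Hspa8* rested on RVVO 1, which was well below RVVO 2. Of the small heat shock genes in this set, *Hspb8*, a partner of BAG3, stood at 78.2 and 91.8 in the sham libraries and 56.5 and 64.1 in the RVVO libraries normalised CPM (-0.49 ± 0.157). *Hspb1* (-0.27 ± 0.410) also had a negative log2 fold change, while those of *Hspb6* (0.14 ± 0.248) and *Hspb7* (0.16 ± 0.153) were positive. *Sqstm1*, the autophagy receptor p62, gave -0.04 ± 0.262. The small heat shock genes and *Sqstm1* were named after their values were seen.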

How the data were processed

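The data were single-nucleus RNA-seq libraries of the RV on P21. The authors deposited counts: whole UMI counts per gene and barcode, per the file headers from Cell Ranger 5.0.0, while the submitters' processing notes name Cell Ranger 3.0.1, STAR and Seurat 3.0.2 and the build GRCm38 (mm10). Groups came from the labels, 2 libraries each. Gene positions come from GENCODE vM21 on GRCm38, promoters from RefSeq.

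Nuclei were kept if 200 genes or more were found and mitochondrial UMIs made up less than 10%. Scrublet scores were used to remove 0.8% of barcodes per 1000 barcodes as doublets, since its own threshold marked 0 or 1 barcode a library. Nuclei were clustered with scanpy 1.11.5 and leidenalg 0.10.2 (2000 variable genes without the 38 genes, 30 components, resolution 2), and clusters were named from marker lists. Resolution 2 and the naming thresholds were set after clusters had been seen. CMs were nuclei with *Ryr2* at 1% or more of UMIs, whatever their cluster. A further 8550 nuclei did not meet that rule, belonged to none of the other lineages compared and were left out of the main fits. They came from unnamed clusters, cluster 2 with its endothelial markers among them, and from named proliferating, adipocyte, B cell and erythroid clusters. They also held 1660 nuclei of CM clusters below the *Ryr2* limit, 348, 261, 176 and 875 in sham 1, sham 2, RVVO 1 and RVVO 2.

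Counts were summed per library and lineage and tested with edgeR 4.0.16 (TMM, filterByExpr, quasi-likelihood, group only; R 4.3.3), with Benjamini-Hochberg adjustment over all genes tested and a threshold of 0.05. The code was tested on simulated data. Of 100 genes given a log2 size of 1, 18% were called in CMs and 63% in ECs. Of 100 genes given a log2 size of 2, 74% were called in CMs and 90% in ECs. Of the 121 calls in CMs 24.0% were false, and of the 169 calls in ECs 9.47% were. Both false shares were above the threshold of 0.05 used for the calls. In CMs most genes given a log2 size of 1 were missed. Shares were compared with exact permutation tests. The depth was 51010039 to 64739206 UMIs a library, and each gene of the role groups rested on at least 447 UMIs per library in CMs. That minimum does not cover the other sarcomere genes, of which *Tnnt1* and *Klhl41* were scarcer, or levels inside single clusters.

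Given with the value of every library were genes at an unadjusted p under 0.05, the 8 with the largest change among those without overlap, the gene of each role group with the most UMIs, and genes at or above their CM level elsewhere. The genes, lists and alternatives were chosen with earlier results of these data known. Of 45 other sarcomere genes, *Cavin4* had no row. Alternatives were DESeq2 1.42.0, other filters, scalings, CM rules and doublet shares, thinning, a block for the replicate number, and fits without 1 library. Removing more doublets and comparing within clusters were added after the data were seen.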

Additional observations from a re-analysis of the deposited data

How the results depend on the processing

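The log2 fold changes of *Actn2*, *Fbxo32*, *Mypn*, *Trim63*, *Unc45b*, *Smyd1*, *Capzb*, *Bag3*, *Tcap*, *Ttn*, *Pdlim5* and *Rbm20* in CMs kept their sign in all 17 alternatives. *Fhod3* turned positive under 4: to 0.0209 without sham replicate 2, 0.0480 with *Ryr2* at 2% or more, 0.0121 without CMs in clusters of another lineage and 0.0435 after thinning to 1000 UMIs. DESeq2 called 2 of the 38 genes in CMs (*Actn2* and *Fbxo32*, both lower) and 42 genes in all against 7 with edgeR. Without the filter on low counts, 2 of the 38 were called in ECs (*Bag3* and *Tcap*, lower), beside 1.73% of 19674 genes, and 1 in pericytes (*Fhod3*, higher), beside 0.827% of 19110 genes. The median log2 fold change of the 38 genes in CMs was -0.0934 without CMs in clusters of another lineage and ranged from -0.33 to -0.11 over the fits that left out 1 library. The difference in the share of CM UMIs ranged from -0.56 to -0.20 percentage points and kept its direction in 13 alternatives. The share of nuclei with a UMI, taken as the median over the genes and then the mean over the libraries, followed depth. For CMs it was 36.4% after thinning to 1000 UMIs, 57.4% at 2000 UMIs and 81.9% without thinning, and for ECs 13.8, 22.5 and 27.4%. The labels give both groups the replicate numbers 1 and 2, and nothing in the labels pairs them: the deviations of same-numbered libraries correlated with r = 0.338 over 14796 genes, with only 2 pairs. A replicate block called 0 of the 38 genes in each of the 5 lineages, with a CM median of -0.19, and left 8 of them at an unadjusted p under 0.05 in CMs, as were 10.2% of all genes against 5.39% without the block. With 2 libraries a group, sex tied to surgery, RVVO 1 the deepest library and strand unstated, a missed threshold does not show equal levels. The mitochondrial share of CMs was also lower in both RVVO libraries, and its part in the differences was not tested. The causes of the changes above were not tested.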

Other observations

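Of the other sarcomere genes at an unadjusted p under 0.05 in CMs, 4 not described above belong to the LIM, nebulin and kelch families, and they are named here after their values were seen. *Fhl2*, a LIM protein at the Z-disc and titin, stood at 6509.6 and 5959 in the sham libraries and 4812 and 4335 in the RVVO libraries normalised CPM (log2 fold change -0.45, SE 0.145, adjusted p = 0.904), and *Fhl1*, its relative, at 88.6 and 87.5 in the sham libraries and 70.1 and 67.6 in the RVVO libraries (log2 fold change -0.35, SE 0.127, adjusted p = 0.916). *Nrap*, a nebulin-related protein of growing myofibrils, stood at 296 and 356 in the sham libraries and 224 and 267 in the RVVO libraries (log2 fold change -0.41, SE 0.161, adjusted p = 0.916). *Klhl41*, a kelch protein of nebulin and the thin filament, stood at 12.2 and 12.5 in the sham libraries and 17.3 and 16.3 in the RVVO libraries (log2 fold change 0.44, SE 0.174, adjusted p = 0.916), the 1 gene of the 42 tested that was higher at that p. None of the 4 overlapped between the groups, as was so for 33.5% of all genes, and none passed the test. Also among the 42 tested, the motor genes *Myh6* (α-myosin heavy chain) and *Myh7* (β-myosin heavy chain) stood at 11868 and 10403 in the sham libraries and 10330.3 and 9617 in the RVVO libraries normalised CPM (-0.16 ± 0.156) and at 403 and 384 in the sham libraries and 380.2 and 373 in the RVVO libraries normalised CPM (-0.06 ± 0.115).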
